A study of Mus musculus with 19 samples.

Results

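Corticotectal projection neurons (CTPN), which link the cortex with the tectum of the midbrain, were compared with corticospinal motor neurons (CSMN), whose axons run to the spinal cord, at postnatal day 14 (P14). The comparison rests on 4 of the 19 arrays of the series, chosen by their titles: 2 arrays of CTPN and 2 of CSMN at P14. Arrays of callosal projection neurons (CPN), which join the hemispheres, at P14 and of CSMN and CPN at embryonic day 18 (E18), P3 and P6 served as a reference for levels and supplied the rest of the measure of spread. All mice were of the C57BL/6 strain, and no genotype or treatment differed between groups. Neurons were marked with green fluorescent microspheres taken up by their axons and isolated by fluorescence-activated cell sorting. In the clause on the injected axonal fields, the labels give visual cortex for CTPN and sensorimotor cortex for the other types. These are read here as the areas of the cell bodies, so the effects of neuron type and of area cannot be told apart. The replicates are described as independent collections, and the number of mice in each and their sex are not given in the sources used here.

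Both populations are subcerebral projection neurons of cortical layer V, a class whose fate depends on the transcription factors Fezf2 and Bcl11b. Corticotectal neurons of visual cortex send visual signals to the superior colliculus, whereas corticospinal neurons carry commands for voluntary movement. Cortical areas acquire their identity from graded transcription factors such as Nr2f1, and axons find their targets through guidance receptors and adhesion molecules. Values are log2 expression as deposited, so a difference of 1 is a doubling, and they carry no detection calls. Folds are therefore limited to genes whose 4 arrays all exceeded 6.62, the highest array median.

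Before any gene was considered, CSMN replicate 2 stood apart from the other arrays. Over 18193 genes its correlation with CSMN replicate 1 was 0.904, and 28.6% of genes, 5202 in all, lay more than 1 apart on the log2 scale between these replicates. CSMN replicate 1 correlated more closely with CTPN replicates 1 and 2, at 0.979 and 0.978, than with its own partner, and the CTPN replicates correlated with each other at 0.979. Correlations within the other groups ran from 0.949 to 0.996, and those of CSMN replicate 2 with any other array from 0.803 to 0.922. The actin control, read by probe sets at the 3' and 5' ends of the transcript, had a 3' minus 5' gap of 2.16 in CSMN replicate 2 against 0.582 to 1.48 in the other arrays. For the Gapdh control the gap was 3.08 against 1.39 to 2.78. A wider gap is a usual sign of shorter or degraded RNA. The part of RNA quality in the results was not tested, and the gene calls are given with and without this array.

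**Figure D1:**
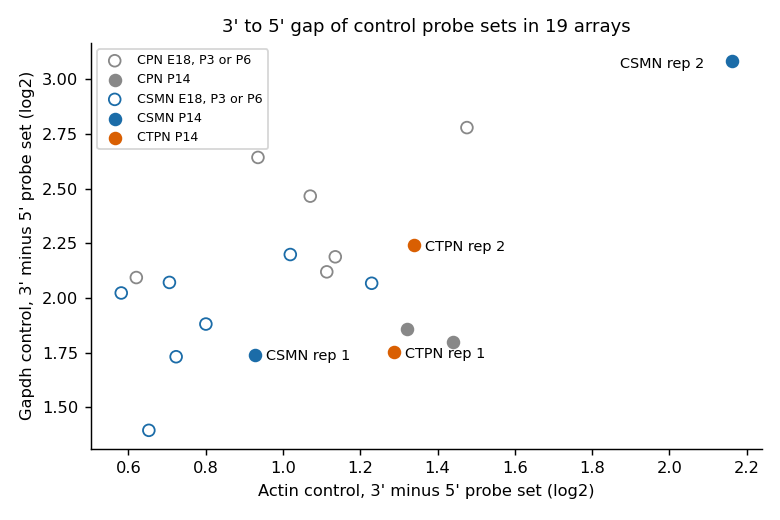
The 3' minus 5' gap of the actin control (x axis, log2) against that of the Gapdh control (y axis, log2), 1 point for each of 19 arrays, with the P14 arrays filled. CSMN replicate 2 lies at 2.16 and 3.08, outside the range of the other arrays on both axes, and CSMN replicate 1 lies at 0.927 and 1.74.

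CSMN replicate 2 did not differ from replicate 1 by a constant shift. Its values were compressed relative to replicate 1. Among the 4549 genes in the lowest quartile of mean level it was higher than replicate 1 by a median of 0.40. Among the 4548 in the highest quartile it was lower, with a median of -0.71. In the CTPN arrays the same medians of replicate 2 minus replicate 1 were -0.07 and -0.07. The interquartile range was 2.37 in CSMN replicate 2 and 2.95 in replicate 1, the widest of the 19 arrays. It was 2.36 in CSMN replicate 2 at E18. Markers of other cells also differed between the CSMN replicates. The median over 19 microglia and macrophage markers was 8.30 in CSMN replicate 1 and 7.10 in replicate 2, beside 6.94 and 6.89 in CTPN. Over 19 endothelial, mural and blood cell markers it was 5.96 in CSMN replicate 1 and 7.34 in replicate 2, beside 6.04 and 5.96 in CTPN. In samples sorted in bulk, fewer cells of a type and less RNA per cell cannot be told apart.

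A total of 35 genes differed between CTPN and CSMN at P14, which is 0.192% of the 18193 tested, by the moderated test of limma with a Benjamini-Hochberg adjusted p under 0.05. Of these, 25 (0.137%) were higher in CTPN and 10 (0.055%) were lower. Higher genes included the transcription factors Pbx3, Rora and Tshz3, the axon receptors Dcc and Unc5d, the adhesion receptor Tenm3 and the secreted Wnt5a, Spock3 and Vcan. Lower genes included Igfbp4, which binds insulin-like growth factors, the actin nucleator Diaph3, and Tmtc1 and Nell1. All 35 had a fitted difference of at least 1 on the log2 scale, and 1602 genes had an unadjusted p under 0.05. Without CSMN replicate 2, when the group has 1 array that is assumed to vary like the others, 65 genes passed (0.357%), 17 higher (0.0934%) and 48 lower (0.264%). Calls in both fits and the same direction were made for 21 genes (0.115%), 14 higher and 7 lower in CTPN.

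These calls rest on a spread shared over all 9 groups. No gene passed with array weights (231 at an unadjusted p under 0.05). The weight was 0.143 for each CSMN array at P14. In a group of 2 arrays this method gives both the same weight, so it could not weight replicate 2 below replicate 1. No gene passed either in a model of the 3 groups at P14 (492 at that unadjusted level) or of the CTPN and CSMN arrays alone (214). Without CSMN replicate 1 5143 genes passed, without CTPN replicate 1 17 and without CTPN replicate 2 12. Igfbp4, Diaph3, Spock3 and Wnt5a passed in each of the 4 fits that left out 1 of the CTPN or CSMN arrays. The split between higher and lower moved with the scaling, from 71.4% higher as deposited to 55.8% higher of 43 genes after cyclic loess normalization.

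**Figure D2:**
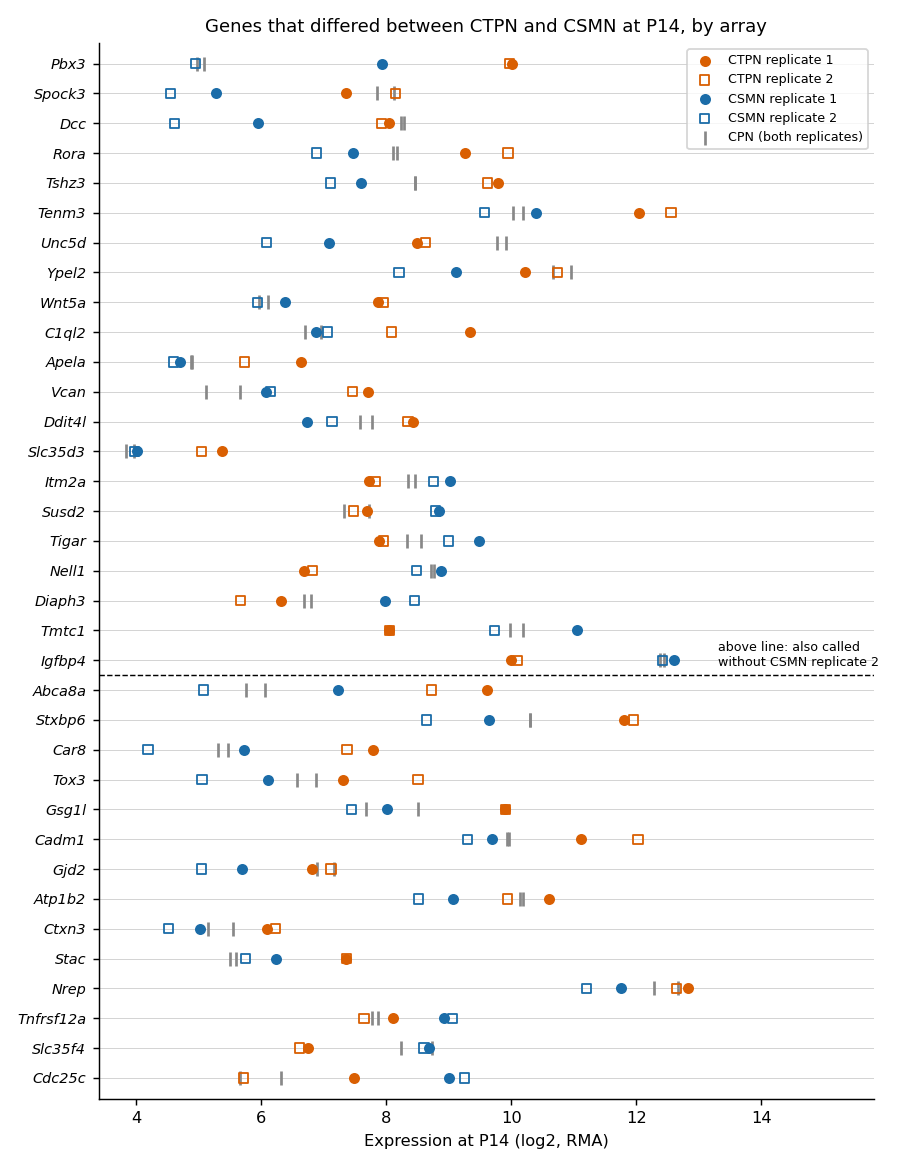
Log2 expression at P14 (x axis) of the 35 genes that differed, 1 row per gene, with CTPN in orange, CSMN in blue (filled circles replicate 1, open squares replicate 2) and both CPN arrays as grey ticks. The genes above the dashed line also passed without CSMN replicate 2. In none of the 35 rows, which were chosen by this difference, do the CTPN and CSMN points overlap. Over all genes 12.5% lay higher and 8.81% lower in CTPN without overlap.

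The sequence just upstream of the transcription start is shown for 3 of the 4 genes that passed in every one of these fits, with CpG dinucleotides in capitals, to set a gene lower in CTPN with a CpG-dense promoter beside a higher one with few. The sequences are from RefSeq (GRCm38.p6), 250 bases each, read 5' to 3' on the gene's strand. They lie at chr11:99040994-99041243 on the plus strand for Igfbp4, chr14:87141225-87141474 on the minus strand for Diaph3 and chr8:62950982-62951231 on the plus strand for Spock3, which has a second listed start.
Igfbp4: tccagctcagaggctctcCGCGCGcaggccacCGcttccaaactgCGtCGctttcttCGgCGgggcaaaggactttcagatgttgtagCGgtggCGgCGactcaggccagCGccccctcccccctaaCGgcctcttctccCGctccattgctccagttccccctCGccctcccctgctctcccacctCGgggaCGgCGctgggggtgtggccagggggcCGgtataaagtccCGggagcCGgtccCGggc
Diaph3: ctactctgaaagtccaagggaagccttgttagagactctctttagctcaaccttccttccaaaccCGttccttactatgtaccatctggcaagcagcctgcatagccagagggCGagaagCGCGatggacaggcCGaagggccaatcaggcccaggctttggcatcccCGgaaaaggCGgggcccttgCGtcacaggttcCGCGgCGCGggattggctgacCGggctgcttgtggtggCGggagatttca
Spock3: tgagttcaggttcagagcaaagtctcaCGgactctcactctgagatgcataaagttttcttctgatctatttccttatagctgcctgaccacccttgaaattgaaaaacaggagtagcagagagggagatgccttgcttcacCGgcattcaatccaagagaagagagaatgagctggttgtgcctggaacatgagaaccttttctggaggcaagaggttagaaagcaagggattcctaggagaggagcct
These windows hold 22 CpG dinucleotides and 69.2% G or C in Igfbp4, 14 and 58.8% in Diaph3, and 2 and 46.4% in Spock3. Over all 18109 listed promoters of 14452 tested genes the medians were 12 CpG dinucleotides and 57.6% G or C. The genes called higher, 15 with 16 promoters listed, had medians of 16 and 65.2%, and the genes called lower, 8 with 8 promoters, had medians of 18.5 and 64.2%. The motif AGGTCA, the half-site to which nuclear receptors such as Rora and Nr2f1 bind, was searched on both strands. It was present in 1 of the 16 promoters of higher genes, that of Ddit4l, in 0 of the 8 of lower genes and in 12.5% of all promoters. No methylation or binding was measured in these neurons, and a match of letters is not a site.

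The transcription factors Pbx3, Rora and Tshz3 were higher in CTPN. Pbx3 is a homeodomain protein that binds DNA together with Hox and Meis factors. The level of Pbx3 was 10.001 and 9.973 in CTPN replicates 1 and 2, 7.94 and 4.94 in CSMN replicates 1 and 2, and 5.08 and 4.97 in CPN. The CTPN arrays were high and alike, while the CSMN arrays were far apart, and the difference of 3.55 ± 0.64 (SE, n = 2 and 2; adjusted p = 0.0396) became 2.05 without CSMN replicate 2 (adjusted p = 0.0373), below the 2.14 of Rora and the 2.11 of Tshz3 in that fit. A second probe set of Pbx3 gave 1.53. The call of Pbx3 was lost with the replicate number as a block (adjusted p = 0.0735) and when either CTPN array was left out. Against CPN the CTPN level was higher by 4.96 (adjusted p = 0.000906).

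Rora, a nuclear receptor that acts as a transcriptional activator, was at 9.26 and 9.95 in CTPN and at 7.47 and 6.88 in CSMN. It was 5.38-fold higher in CTPN (difference 2.43 ± 0.34, adjusted p = 0.00906; 2.14 without CSMN replicate 2, adjusted p = 0.0377). The probe sets of Rora disagreed, with differences from -0.65 to 3.27 over 9 of them. Tshz3, a zinc finger factor of the teashirt family, was at 9.79 and 9.62 in CTPN, 7.60 and 7.10 in CSMN and 8.46 and 8.45 in CPN. The groups did not overlap, and the difference was 2.35 ± 0.34 (adjusted p = 0.0107), with 2.11 left without CSMN replicate 2 (adjusted p = 0.0403). For both genes CPN lay between CTPN and CSMN, and the difference of CTPN from CPN missed the threshold (1.47, adjusted p = 0.0583, for Rora and 1.25, adjusted p = 0.132, for Tshz3).

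Of 20 measured transcription factors and cofactors that pattern cortical areas, Pbx3 alone passed, beside 0.192% of all genes. The CTPN arrays lay above both CSMN arrays for 6 of the 20 and below both for 0, beside 12.5% and 8.81% of all genes. The list median was 0.25, and 0.15 without CSMN replicate 2, against 0.01 and 0.00 over all genes. Nr2f1, the nuclear receptor with high expression in caudal cortex during area patterning, was at 9.36 and 9.40 in CTPN, 8.31 and 7.28 in CSMN, and 10.24 and 10.36 in CPN. Its levels in CTPN exceeded those in CSMN on every array by a difference of 1.59 (95% interval 0.73 to 2.45), and the test was missed (adjusted p = 0.202; difference 1.07 and adjusted p = 0.517 without CSMN replicate 2). Lmo4, a LIM-only transcriptional cofactor, was at 8.82 and 8.20 in CTPN and 8.43 and 8.05 in CSMN, with overlapping groups and a difference of 0.27 (95% interval -0.44 to 0.98).

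Receptors and ligands for axon guidance gave 2 calls among 50 measured genes, both higher in CTPN, beside 0.137% of all genes called higher. Dcc is the netrin-1 receptor that mediates axon attraction. Its level was 8.05 and 7.93 in CTPN, 5.94 and 4.60 in CSMN and 8.24 and 8.29 in CPN, so CSMN alone was low. The difference from CSMN was 2.71 ± 0.37 (adjusted p = 0.00778), and 2.05 without CSMN replicate 2 (adjusted p = 0.0162). The other probe sets gave 2.18 and -0.09. Unc5d, of the netrin receptor family that mediates repulsion, was at 8.49 and 8.63 in CTPN, 7.07 and 6.08 in CSMN and 9.92 and 9.77 in CPN. CTPN thus lay between the other types, 1.98 ± 0.29 above CSMN (adjusted p = 0.0132; 1.49 without CSMN replicate 2, adjusted p = 0.0373) and 1.28 below CPN on the fitted means (adjusted p = 0.0537). The other 48 guidance genes had differences from -0.76 (Plxna4) to 1.17 (Sema6a), and the median of the list was 0.05, or -0.17 without CSMN replicate 2. Both genes are also on the list of upper-layer and callosal markers, where they were the calls among 27 measured genes.

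Wnt5a, a Wnt ligand that repels corticospinal axons through its receptor Ryk, was at 7.87 and 7.96 in CTPN, 6.38 and 5.94 in CSMN and 6.10 and 5.96 in CPN. CTPN was the high group, by 1.76 ± 0.21 over CSMN (adjusted p = 0.00232) and by 1.54 without CSMN replicate 2 (adjusted p = 0.011). Over CPN it was higher by 1.88 (adjusted p = 0.000405). The other probe sets of Wnt5a gave differences of 0.16, 0.35 and 0.74, and with the mean of all of them the difference was 0.75 and the call was lost (adjusted p = 0.0544). Ryk itself was at 7.60 and 7.59 in CTPN and 7.82 and 8.58 in CSMN (adjusted p = 0.541, and 0.876 without CSMN replicate 2).

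Tenm3 is a teneurin, a transmembrane adhesion protein required for ordered connections in the visual pathway. Its level was 12.03 and 12.55 in CTPN, 10.40 and 9.57 in CSMN and 10.18 and 10.02 in CPN. CTPN stood above both other types, 4.97-fold above CSMN (difference 2.31 ± 0.30, adjusted p = 0.00648; 1.90 without CSMN replicate 2, adjusted p = 0.02), and by 2.19 above CPN (adjusted p = 0.00156). A second probe set gave 2.25. It was the call among 25 measured surface and secreted genes with graded or areal expression, of which 5 lay above and 2 below both CSMN arrays, beside 12.5% and 8.81% of all genes. Epha5, an ephrin receptor of the same list, was at 10.76 and 10.99 in CTPN and 10.50 and 9.38 in CSMN (difference 0.93, adjusted p = 0.482; 0.37 and 0.842 without CSMN replicate 2).

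The extracellular proteins Spock3, Vcan, C1ql2 and Apela were higher in CTPN. Spock3 (testican-3, a proteoglycan) was at 7.35 and 8.15 in CTPN, 5.28 and 4.55 in CSMN and 8.12 and 7.86 in CPN. As with Dcc, CSMN was the low group: the difference from CSMN was 2.84 ± 0.33 (adjusted p = 0.00232; 2.47 without CSMN replicate 2, adjusted p = 0.0122) and that from CPN was -0.24 (adjusted p = 1). Vcan (versican, a chondroitin sulfate proteoglycan of the matrix) was at 7.71 and 7.45 in CTPN, 6.07 and 6.15 in CSMN and 5.11 and 5.65 in CPN. Its CSMN replicates were close, and the difference was 1.48 with both of them (adjusted p = 0.00778) and 1.52 without replicate 2 (adjusted p = 0.0154). Other probe sets of Vcan ran from -0.74 to 0.50, and the call was lost with the mean of all its probe sets (0.14, adjusted p = 0.781) and with cyclic loess normalization (1.32, adjusted p = 0.0518).
C1ql2, a secreted synaptic organizer of the C1q family, was at 9.34 and 8.09 in CTPN and 6.88 and 7.05 in CSMN (difference 1.75, adjusted p = 0.0295; adjusted p = 0.0497 without CSMN replicate 2). Its CTPN replicates were farther apart than its CSMN replicates, without overlap. Apela, a peptide ligand of the apelin receptor, was at 6.63 and 5.73 in CTPN and 4.69 and 4.60 in CSMN (difference 1.53, adjusted p = 0.0155; 1.48 and 0.0409 without CSMN replicate 2).

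The remaining higher genes that passed in both fits act inside the cell. Ypel2, of the yippee-like family, was at 10.22 and 10.73 in CTPN, 9.12 and 8.20 in CSMN and 10.66 and 10.95 in CPN, which again set CSMN apart (difference from CSMN 1.81, adjusted p = 0.0155; 1.36 and 0.0483 without CSMN replicate 2). Its call was lost when probe sets ending in _a_at, _s_at or _x_at were left out (1.46, adjusted p = 0.104). Ddit4l, an inhibitor of mTORC1 signalling, was at 8.43 and 8.35 in CTPN and 6.72 and 7.13 in CSMN (1.46, adjusted p = 0.0155; 1.66 and 0.0136). Slc35d3, of the nucleotide sugar transporter family, was at 5.37 and 5.04 in CTPN and 4.01 and 3.97 in CSMN (1.21, adjusted p = 0.00778; 1.19 and 0.0161). Slc35d3 in all these arrays, and Dcc, Spock3, Wnt5a, Vcan and Apela in CSMN, lay below the array medians, where background weighs on the size of a difference. So did Apela in CTPN replicate 2, and Pbx3 and Unc5d in CSMN replicate 2.

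Igfbp4 showed the largest difference relative to its error. It encodes a secreted protein that binds insulin-like growth factors and limits their access to receptors. Its level was 9.998 and 10.092 in CTPN, 12.60 and 12.41 in CSMN and 12.44 and 12.38 in CPN. The replicates of each type were close, and CTPN was low against both other types. It was 5.52-fold lower than in CSMN (difference -2.46 ± 0.20, adjusted p = 7.59e-05; -2.56 without CSMN replicate 2, adjusted p = 0.000446), and lower than in CPN by 2.37 on the fitted means (adjusted p = 0.000129). All 6 probe sets of Igfbp4 were lower in CTPN, by between -0.32 and -3.17. All 6 end in _a_at, _s_at or _x_at, so Igfbp4 had no value when such probe sets were left out. The other 19 measured genes of the insulin-like growth factor and thyroid hormone list did not pass. The receptor Igf1r was at 9.70 and 9.32 in CTPN and 9.56 and 8.67 in CSMN, and the ligand Igf1 at 6.75 and 7.19 in CTPN and 7.28 and 6.73 in CSMN, with groups that overlapped in both cases.

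Diaph3, a formin that nucleates and extends actin filaments, was at 6.32 and 5.66 in CTPN, 7.98 and 8.45 in CSMN and 6.79 and 6.68 in CPN. Both CTPN levels lay below the array medians, where background weighs on the size of a difference. CSMN was the high group here, and CSMN replicate 2 was the higher of its pair. The difference was -2.22 ± 0.26 (adjusted p = 0.00232), and -1.99 without that array (adjusted p = 0.0122), while the difference from CPN was -0.75 (adjusted p = 0.355). Tmtc1, which helps to attach O-linked mannose to cadherins in the endoplasmic reticulum, was at 8.05 and 8.04 in CTPN, 11.05 and 9.73 in CSMN and 9.97 and 10.19 in CPN. CTPN was low against both other types, with a difference from CSMN of -2.34 (adjusted p = 0.0413), or -3.0 without CSMN replicate 2 (adjusted p = 0.011). A second, dim probe set of Tmtc1 gave -0.30, and with the mean of both the call was lost (-1.32, adjusted p = 0.116). The call was also lost with the replicate number as a block (adjusted p = 0.0772).

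Nell1, a secreted protein with EGF-like repeats, was at 6.68 and 6.81 in CTPN, 8.88 and 8.48 in CSMN and 8.72 and 8.77 in CPN. CTPN was again the low group, by a difference of -1.93 from CSMN (adjusted p = 0.0261; -2.14 and 0.0356 without CSMN replicate 2) and of -2.0 from CPN (adjusted p = 0.00564). A second probe set of Nell1 gave -0.13, and with the mean of both the call was lost (-1.03, adjusted p = 0.195). Tigar, a phosphatase that lowers glycolytic flux, was at 7.88 and 7.95 in CTPN and 9.48 and 8.99 in CSMN (-1.32, adjusted p = 0.0442). The other probe sets of Tigar gave -0.55 and -0.41, and its call was lost with their mean (-0.76, adjusted p = 0.258), with an intensity trend in the spread (adjusted p = 0.0678) and among genes above the median brightness (adjusted p = 0.0648). Susd2, a sushi domain membrane protein, was at 7.69 and 7.47 in CTPN and 8.84 and 8.79 in CSMN (-1.23, adjusted p = 0.023). Itm2a, a membrane protein with a BRICHOS domain, was at 7.72 and 7.82 in CTPN and 9.02 and 8.75 in CSMN (-1.12, adjusted p = 0.0409). This call was also lost with the intensity trend (adjusted p = 0.0859), above the median brightness (adjusted p = 0.072) and with the replicate number as a block (adjusted p = 0.0713). In Tigar, Susd2 and Itm2a the replicates of a type were closer to each other than to the other type, and adjusted p without CSMN replicate 2 was 0.0298 for Tigar, 0.0394 for Susd2 and 0.0372 for Itm2a.

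A further 14 genes passed with all arrays but not without CSMN replicate 2, 11 higher and 3 lower in CTPN, with an adjusted p of 0.0615 to 0.167 when it was left out. Their differences without it were 0.64 to 1.02 times those with it. The lipid transporter Abca8a was at 9.61 and 8.72 in CTPN and 7.22 and 5.07 in CSMN (3.02, or 1.94 without CSMN replicate 2). Stxbp6, which binds SNARE proteins, was at 11.80 and 11.96 in CTPN and 9.64 and 8.65 in CSMN (2.74, or 2.24). Car8 is a carbonic anhydrase relative that binds the inositol trisphosphate receptor. It was at 7.79 and 7.37 in CTPN and 5.72 and 4.19 in CSMN (2.63, or 1.86, and 0.60 without probe sets ending in _a_at, _s_at or _x_at). In all of them, and in Tox3, a high mobility group protein (2.33, or 1.80), CSMN replicate 2 was the lowest of the 4 arrays. Car8 and Tox3 in both CSMN arrays, and Abca8a in CSMN replicate 2, lay below the array medians, where background weighs on the size of a difference.
Cdc25c, a phosphatase of the cell cycle, was at 7.48 and 5.72 in CTPN and 8.996 and 9.255 in CSMN (-2.53, or -2.40). Slc35f4, a solute carrier, was at 6.75 and 6.61 in CTPN and 8.68 and 8.60 in CSMN (-1.96, or -2.0). Tnfrsf12a, the receptor of the cytokine TWEAK, was at 8.11 and 7.64 in CTPN and 8.92 and 9.06 in CSMN (-1.12, or -1.05). For these 3 genes the CSMN replicates were close together, and the differences were nearly the same in both fits. Over all calls, CSMN replicate 2 lay below replicate 1 in 22 of the 25 higher genes and in 7 of the 10 lower ones.

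Leaving out CSMN replicate 2 added 44 genes, 3 higher and 41 lower in CTPN, whose adjusted p with both arrays ran from 0.0501 to 0.961. All 41 lower genes had a higher level in CSMN replicate 1 than in replicate 2, and for 15 of them replicate 2 reached into the CTPN range. Mdfic, which regulates transcription factors, was at 6.11 and 5.76 in CTPN, 9.51 in CSMN replicate 1 and 7.03 in replicate 2. Tgfbr1, a receptor for transforming growth factor beta, was at 6.64 and 6.38 in CTPN against 9.62 and 6.92 in CSMN. Prdm8, a PR domain factor needed for forebrain axon tracts, was at 6.09 and 7.46 in CTPN against 9.79 and 7.65 in CSMN. Ermn (ermin), a cytoskeletal protein of myelinating oligodendrocytes, was at 4.41 and 4.36 in CTPN against 7.32 and 5.24 in CSMN. In all of these CSMN replicate 1 was high, and replicate 2 lay nearer to CTPN than to its partner. The differences of these genes without replicate 2 were -3.57, -3.11, -3.01 and -2.93. Those of CTPN from CPN, with all arrays, were -0.12, -1.48, -3.13 and -0.16, and Prdm8 alone passed there (limma adjusted p = 0.00718). Levels of Mdfic and Ermn in CTPN, Ermn in CSMN replicate 2, Prdm8 in CTPN replicate 1 and Tgfbr1 in CTPN replicate 2 were below the array medians. Background weighs on the size of a difference there. In each of the genes named here, both CTPN arrays lay below all 9 CSMN arrays, beside 1.54% of all genes and 17.5% of those below CSMN at P14 without overlap. They were named for the largest differences. Lower genes whose replicate 2 reached into the CTPN range did not lie below all 9, nor did others such as Nefm and Opn3. CSMN means at E18, P3 and P6 were 6.34, 8.64 and 9.64 for Mdfic and 11.43, 11.29 and 10.95 for Tgfbr1. They were 9.68, 10.02 and 9.83 for Prdm8 and 10.49, 9.93 and 9.33 for Ermn. In CPN those of Ermn were 4.39, 4.23 and 4.26. The microglia and macrophage markers were also highest in CSMN replicate 1, in 15 of 19 genes beside 5360 of all 18193, and their part in these differences was not tested. The 3 higher genes, Spats2l, Ankrd33b and Rnf144b, had differences of 1.36, 1.13 and 0.97.

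**Figure D3:**
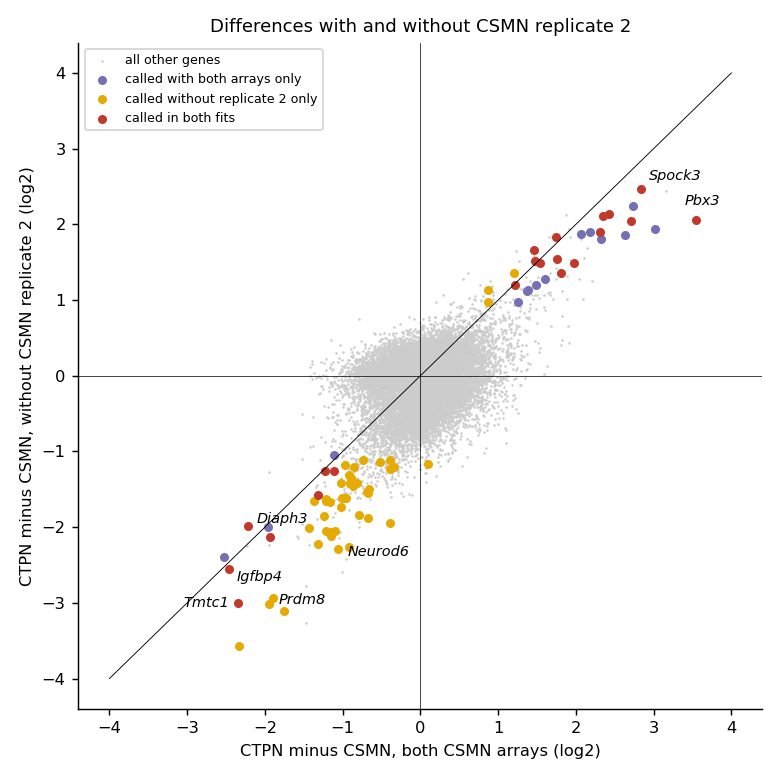
The CTPN minus CSMN difference (log2) with both CSMN arrays (x axis) and without CSMN replicate 2 (y axis), 1 point per gene. The 21 genes that passed in both fits are red, the 14 that passed with both arrays alone are purple, and the 44 that passed without replicate 2 alone are yellow, 41 of them below 0 on the y axis.

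Among the best known genes of subcerebral neurons, Bcl11b, Fezf2 and Crym did not pass between CTPN and CSMN, where 0.192% of all genes did. Bcl11b was at 11.50 and 11.79 in CTPN, 11.35 and 11.37 in CSMN, and 8.40 and 8.65 in CPN. Both subcerebral types were above CPN (by 3.12 in CTPN, adjusted p = 0.001, and 2.84 in CSMN, adjusted p = 0.003), and their own difference was 0.29 (95% interval -0.61 to 1.18). Fezf2 was at 11.57 and 11.30 in CTPN, 10.89 and 10.12 in CSMN and 8.84 and 8.46 in CPN, with CTPN above CSMN on every array by a difference of 0.92 (95% interval 0.33 to 1.52; adjusted p = 0.356) that was 0.54 without CSMN replicate 2 (95% interval -0.08 to 1.16). Crym, a thyroid hormone binding protein of the cytosol, was at 12.48 and 12.23 in CTPN and 12.44 and 11.94 in CSMN, against 9.40 and 9.03 in CPN. Its difference was 0.16 (95% interval -0.85 to 1.18) and turned to -0.09 without CSMN replicate 2.

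Most other identity genes had intervals that include 0. Differences were 0.07 (-0.43 to 0.57) for the LIM-domain binding protein Ldb2, -0.11 (-1.03 to 0.81) for Crim1, 0.01 (-0.68 to 0.69) for the calmodulin regulator Pcp4, 0.39 (-0.35 to 1.12) for Lypd1 and 0.29 (-0.59 to 1.17) for the natriuretic peptide receptor Npr3. Those of Ldb2, Lypd1 and Npr3 changed sign without CSMN replicate 2, to -0.08, -0.03 and -0.51. These intervals include 0 and also differences near 1 in several genes, so they do not show equal levels. Cux2, an upper-layer factor, was at 6.87 and 8.22 in CTPN, 6.63 and 7.41 in CSMN and 10.45 and 10.36 in CPN, with overlapping subcerebral groups (difference 0.52, 95% interval -0.94 to 1.99). Nefh, the heavy neurofilament subunit of large axons, was at 8.97 and 9.70 in CTPN, 11.56 and 10.99 in CSMN and 8.14 and 8.23 in CPN. CSMN were high on each array, yet the difference of -1.94 (95% interval -2.94 to -0.94) missed the threshold in both fits (adjusted p = 0.172, and 0.142 without CSMN replicate 2).

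Of 16 corticospinal or subcerebral genes taken from earlier array screens, 2 were lower in CTPN and 0 higher with all arrays, beside 0.055% and 0.137% of all genes. These were Diaph3 and Igfbp4, and Igfbp4 did not separate CSMN from CPN at P14 (difference 0.10, adjusted p = 0.833). Both CTPN arrays lay above both CSMN arrays for 4 of the 16 and below them for 4, beside 12.5% and 8.81% of all genes. Opn3, a light-sensitive opsin, was at 9.92 and 9.52 in CTPN and 10.89 and 10.47 in CSMN and passed without CSMN replicate 2 (difference -1.17, adjusted p = 0.04; -0.96 and 0.105 with it). S100a10, the partner of annexin A2, was at 10.25 and 9.41 in CTPN and 11.28 and 10.83 in CSMN (adjusted p = 0.305, and 0.219 without CSMN replicate 2). Of 21 other layer V markers 0 passed in either fit, and of 18 layer VI and subplate markers 0 passed with all arrays and 1, Foxp2, without CSMN replicate 2.

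In all, 32 gene lists with 727 measured genes were examined, and 6 of them held a call with all arrays. Counts of genes above or below both CSMN arrays are to be read beside the 12.5% and 8.81% of all genes. Counts of calls in these lists are to be read beside the 0.192% of all genes called with all arrays. At so low a share most lists of this size hold 0 calls, so a count of 0 says little about a list. Among 28 genes of neurofilaments, microtubules and axonal transport 0 passed with all arrays, and 2 lay above and 5 below both CSMN arrays. Without CSMN replicate 2 the medium neurofilament subunit Nefm was lower in CTPN (-1.66, adjusted p = 0.0298). Among 43 sodium, potassium and HCN channel genes 0 passed with all arrays and 1, Scn4b, without CSMN replicate 2. Kcnn2, a calcium-activated potassium channel, was at 8.72 and 9.08 in CTPN and 8.28 and 7.75 in CSMN (difference 0.88, adjusted p = 0.181; 0.62 and 0.411 without CSMN replicate 2). Scn4b, a sodium channel subunit, was at 6.32 and 5.96 in CTPN and 7.56 and 6.55 in CSMN (-0.91, adjusted p = 0.33; -1.41 and 0.0154). Among 24 cadherins and protocadherins 0 passed with all arrays, and 8 lay above both CSMN arrays and 0 below. Without CSMN replicate 2 the protocadherin Pcdh17 was lower in CTPN (-1.54, adjusted p = 0.0387). N-cadherin, Cdh2, was at 9.42 and 11.02 in CTPN and 8.66 and 7.56 in CSMN (difference 2.11, adjusted p = 0.13; 1.56 and 0.363 without CSMN replicate 2), and Pcdh10 at 9.68 and 9.82 in CTPN and 8.65 and 7.51 in CSMN (1.67, adjusted p = 0.0627; 1.10 and 0.208). Of 28 presynaptic genes 0 passed with all arrays and 2, Vamp1 and Slc17a7, were lower in CTPN without CSMN replicate 2. In both fits 0 passed among 35 glutamate receptor and postsynaptic genes, 26 genes of motor neuron disease, 44 oxidative phosphorylation subunits and 29 ribosomal protein genes.

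List medians depended on CSMN replicate 2. Without it the median lay below 0 in 25 of the 32 lists, and it changed sign in 17. For glutamate receptors and postsynaptic genes it was 0.36 with both arrays and -0.09 without replicate 2, and for GABA receptor subunits and chloride transporters 0.34 and -0.04. For early response genes it moved from -0.10 to -0.45 and for glycolytic enzymes from -0.13 to -0.43. Over all genes it was 0.01 and 0.00.

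**Figure D4:**
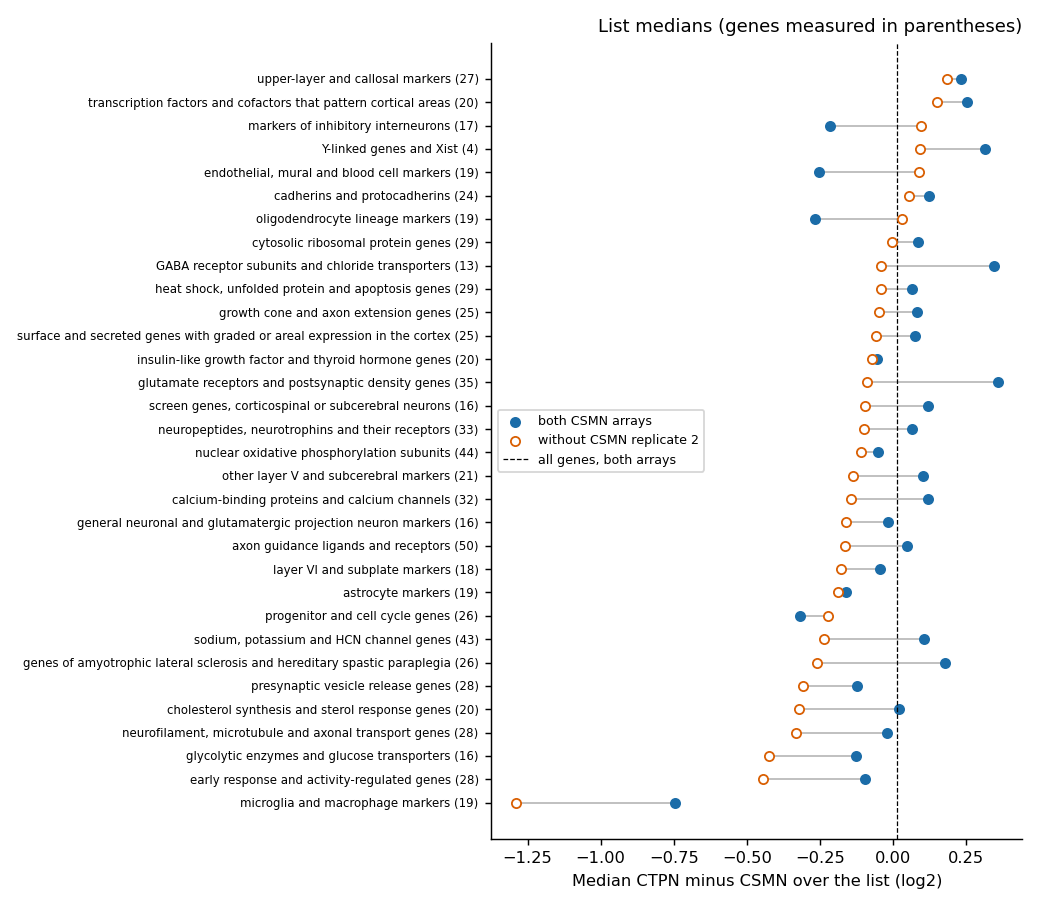
Median CTPN minus CSMN difference (log2, x axis) of each of 32 gene lists, with both CSMN arrays (filled) and without CSMN replicate 2 (open), and the median of all genes as a dashed line. The microglia and macrophage list lies lowest, at -0.75 and -1.29, and 25 open points lie below 0.

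General neuronal markers were high in both types, whereas the glutamatergic markers Slc17a7 and Neurod6 were lower in CTPN than in CSMN replicate 1. The neuronal nuclear protein Rbfox3 was at 12.79 and 12.53 in CTPN and 12.56 and 12.89 in CSMN, and the synaptic protein Snap25 at 12.88 and 12.82 in CTPN and 12.87 and 12.46 in CSMN. Levels of both overlapped between types. The vesicular glutamate transporter Slc17a7 was at 7.89 and 8.82 in CTPN, 10.42 and 8.59 in CSMN, with CSMN replicate 1 high, and 9.01 and 9.08 in CPN. Neurod6, a factor of excitatory cortical neurons, was at 6.93 and 8.26 in CTPN, 9.88 and 7.43 in CSMN, and 10.49 and 10.39 in CPN. Between CTPN and CSMN both genes passed in the fit without CSMN replicate 2 and not with both arrays. Against CPN, with all arrays, the difference of CTPN was -2.85 for Neurod6 (limma adjusted p = 0.0247). It was -0.69 for Slc17a7, which did not pass.

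Markers of other cell types gave 0 calls with all arrays, where 0.192% of all genes were called. Microglia and macrophage markers were the list with the lowest median, -0.75 with both CSMN arrays and -1.29 without replicate 2, and 7 of its 19 genes were below both CSMN arrays and 0 above, beside 8.81% and 12.5% of all genes. The colony-stimulating factor receptor Csf1r was at 9.24 and 9.13 in CTPN, 11.33 and 9.13 in CSMN and 9.57 and 9.01 in CPN, and the complement subunit C1qa at 7.38 and 6.52 in CTPN, 9.73 and 7.10 in CSMN and 7.68 and 6.85 in CPN. CSMN replicate 1 was the array that stood out in each. Endothelial, mural and blood cell markers were highest in CSMN replicate 2 in 15 of 19 genes, beside 6286 of all 18193, as for Pecam1, an endothelial adhesion molecule, at 6.82 there and 5.43 in replicate 1, beside 5.93 and 5.51 in CTPN.
For 19 astrocyte markers the list median was -0.16 (-0.19 without CSMN replicate 2), and Gfap was at 6.73 and 6.49 in CTPN and 6.80 and 6.66 in CSMN. Over 17 interneuron markers it was -0.22 (0.09), over 19 oligodendrocyte markers -0.27 (0.03) and over 26 progenitor and cell cycle genes -0.32 (-0.22). Gad1, the enzyme of GABA synthesis, was at 6.60 and 6.74 in CTPN and 7.06 and 7.03 in CSMN, near the array medians. The part of these cells in the gene differences was not tested.

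Levels at earlier stages were set beside the P14 values as a description. Of the 14 higher genes that passed in both fits, 13 were higher in both CTPN arrays than in all 9 CSMN arrays from E18 to P14, beside 2.06% of all genes and 16.5% of the genes with CTPN above CSMN at P14 without overlap. The exception was Vcan, whose mean in CSMN was 10.41 at E18, 10.85 at P3 and 10.14 at P6, well above its P14 level. Of the 7 lower genes, Tmtc1 and Tigar lay below all 9 CSMN arrays, beside 1.54% of all genes and 17.5% of those below CSMN at P14 without overlap. Among all 25 genes called higher 17 (68%) lay above all 9, and among all 10 called lower 3 (30%) lay below. The genes were chosen by their P14 difference, and the 9 arrays include those of CSMN at P14. These counts are therefore no separate support for the calls. Igfbp4 in CSMN had means of 7.82 at E18, 9.79 at P3 and 11.57 at P6 before the P14 level of 12.60 and 12.41, and the CTPN level at P14 was close to the P3 mean. In CPN it was 10.03, 9.72 and 10.59 at these earlier stages.

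Nell1 followed a like course in CSMN, from 5.17 at E18 to 6.00 at P3 and 7.60 at P6, and CTPN at 6.68 and 6.81 lay between the P3 and P6 means. Diaph3 in CSMN was at 6.31 at E18, 7.89 at P3 and 7.65 at P6, and its CTPN level was near that at E18. Wnt5a reached 7.09 at P3 and 7.62 at P6 in CSMN before the lower P14 level, whereas in CPN it stayed between 5.92 and 6.09 in the means from E18 to P6. Spock3 in CSMN had means of 3.78, 4.70 and 4.94 from E18 to P6, and in CPN of 3.70, 7.14 and 7.35. Pbx3 in CPN was high at E18, at 9.72, and had means of 7.62 at P3 and 5.55 at P6. No CTPN arrays of earlier stages were analysed here, so these values give no course for CTPN.

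**Figure D5:**
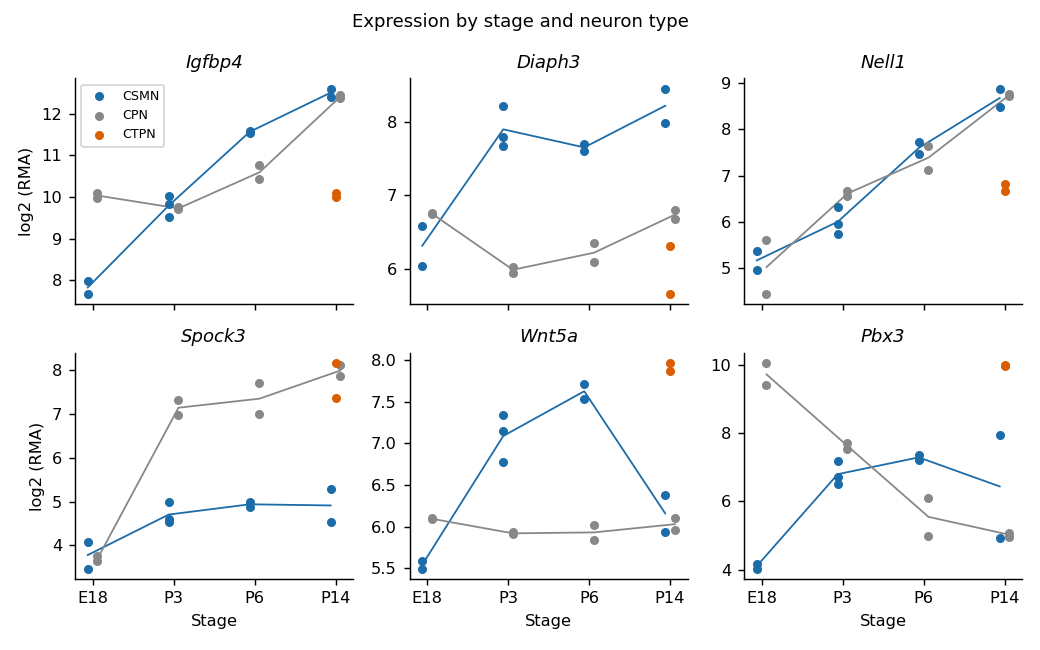
Log2 expression (y axis, a separate scale for each gene) of 6 genes at E18, P3, P6 and P14 (x axis), 1 point per array, with lines through the means of CSMN (blue) and CPN (grey) and CTPN at P14 in orange. Igfbp4 and Nell1 in CTPN lie below both other types at P14, Diaph3 below CSMN, Spock3 at the CPN level, and Wnt5a and Pbx3 above both.

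The CPN arrays share the sensorimotor label with CSMN and were compared with the same CTPN arrays, so the values are set side by side without a count of overlap. In the comparison of CTPN with CPN 193 genes passed (1.06%), 83 higher (0.456%) and 110 lower (0.605%), against 0 in the model of the 3 groups at P14. Pbx3, Tenm3, Wnt5a, Vcan, C1ql2, Apela and Slc35d3 were higher in CTPN than in CPN by 4.96, 2.19, 1.88, 2.20, 1.88, 1.30 and 1.30, and each of these passed. Igfbp4, Nell1 and Tmtc1 were lower, by -2.37, -2.0 and -2.04, and passed as well. Dcc, Spock3, Ypel2 and Susd2 had differences from CPN of -0.28, -0.24, -0.33 and 0.06, and none of these passed. For this last set the CSMN minus CPN difference passed in each, at -2.99, -3.08, -2.14 and 1.29, with both CSMN arrays in the fit.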

How the data were processed

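Sorted neurons in 9 groups were profiled on 19 Affymetrix 430 2.0 mouse arrays, after extraction with a StrataPrep kit and 2 rounds of in vitro transcription, per the labels' protocols. Per the submitters' processing notes the authors used RMA, with no version given, and deposited a log2 value for each probe set. These values, from 3.17 to 14.4, were not changed further. A table supplied with the data gave 1 gene symbol for 34945 of 45101 probe sets, several for 932 and none for 9160, beside 64 array controls. The brightest probe set by the mean over all arrays stood for each of 18193 genes. Symbols were checked by gene identifier against RefSeq for 34741 probe sets, and 0 changed.

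The means of the 9 groups were estimated in 1 limma model over all 19 arrays (residual degrees of freedom 10, prior 4.46; 9 and 4.87 without CSMN replicate 2), with two-sided moderated tests and Benjamini-Hochberg adjustment over all genes, called at 0.05. SE is that of the model, and precision is limited by the few arrays. The scripts were tested on simulated data. The comparison and the gene lists were chosen with earlier results of these data known. Named were up to 12 of the largest differences in each direction that passed in both fits, up to 4 that passed in one fit alone, a fixed set of identity genes, members of described lists and markers of other cells. Ddit4l and Slc35d3, which complete the higher genes that passed in both fits, and the Nefm, Pcdh17, Vamp1, Slc17a7, Plxna4 and Sema6a values were added after they were seen. Alternatives were other normalizations, filters, probe set rules, array weights, smaller models, a replicate block and leaving out each array. Bhlhe22 and Etv1 were not analysed here, and 1 further item is not reported here. The software was limma 3.58.1 in R 4.3.3, and matplotlib 3.10.9 in Python 3.11.15.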

Additional observations from a re-analysis of the deposited data

Results flagged for a closer look

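Probe sets with several gene symbols or none were left out of the comparison of genes. Of 10092 of them, 1 passed the limma test adjusted over them alone (0.00991%), and 781 had an unadjusted p under 0.05. The probe set 1452004_at, for which no single gene name was given, was at 8.33 and 8.40 in CTPN, 6.00 and 6.16 in CSMN and 5.79 and 5.93 in CPN. It was higher in CTPN than in CSMN by 2.28 ± 0.21 (adjusted p = 0.000359), by 2.36 without CSMN replicate 2 (adjusted p = 0.00444) and higher than in CPN by 2.50. It is named because it carries a difference outside the main measurement.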

How the results depend on the processing

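The 35 calls between CTPN and CSMN became 19 among genes above the median brightness and 0 with array weights, in the model of the 2 groups alone and in that of the 3 groups at P14. They ranged from 12 to 5143 when 1 of the 4 arrays was left out: 5143 without CSMN replicate 1, 65 without CSMN replicate 2, 17 without CTPN replicate 1 and 12 without CTPN replicate 2, of which 35, 21, 10 and 8 were among the 35. The 65 calls without CSMN replicate 2 became 39 with quantile normalization, 235 with array weights, 17 in the model of the 3 groups and 0 in that of the 2 groups alone (1235 at an unadjusted p under 0.05 by limma), and ranged from 36 to 45 without a CTPN array. The 21 genes that passed in both fits became 10 above the median brightness and 0 with array weights and in both smaller models, and ranged from 12 to 14. The 193 calls between CTPN and CPN became 119 above the median brightness, 588 with array weights and 0 in the model of the 3 groups (697 unadjusted), and ranged from 101 to 395. Quantile normalization, cyclic loess normalization and the mean of all probe sets gave 42, 43 and 39 calls between CTPN and CSMN. Of these 31, 31 and 28 were among the 35. Leaving out probe sets ending in _a_at, _s_at or _x_at, an intensity trend and a minimum difference of 1 gave 29, 37 and 35. Of these 27, 31 and 35 were among the 35. Igfbp4, Diaph3, Spock3, Pbx3 and Cdc25c have only probe sets with such endings, so they were not tested without them. The mean of all probe sets lost Vcan, Nell1, Tigar, Tmtc1, Wnt5a, Atp1b2 and Slc35f4. With the replicate number as a block 26 genes passed (20 higher and 6 lower, 25 of them among the 35). The deviations of same-numbered CTPN and CSMN arrays correlated at -0.0989, those of CPN with CTPN at 0.126 and of CPN with CSMN at 0.211. The wide gap between the CSMN replicates could hide a shared part, so these values do not decide whether the numbers pair CTPN with CSMN. Signs turned in 8 identity genes that did not pass. Leaving out 1 array gave ranges of -0.44 to 0.21 for Crim1, -0.0874 to 0.42 for Crym, -0.15 to 1.20 for Cux2, -0.0813 to 0.22 for Ldb2, -0.0401 to 0.58 for Lmo4, -0.0302 to 0.80 for Lypd1, -0.51 to 1.08 for Npr3 and -0.10 to 0.11 for Pcp4. Other settings gave -0.0914 for Cux2 with the mean of probe sets and -0.13 for Pcp4 with cyclic loess. For Ldb2 they gave -0.0201 with quantile normalization, -0.0601 with cyclic loess and -0.0408 with the mean of probe sets. Ldb2 was at -0.13 without probe sets ending in _a_at, _s_at or _x_at. The cause of these changes was not tested.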

Other observations

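The labels give no sex for the animals, and 4 sex-linked genes were measured. Xist, the RNA of the inactive X chromosome, was at 8.28 and 9.71 in CTPN and 7.06 and 7.11 in CSMN, without overlap (difference 1.92, limma adjusted p = 0.318). The Y-linked Eif2s3y was at 6.34 and 7.55 in CTPN and 7.66 and 4.77 in CSMN. Grp, a neuropeptide, and Kcnab1, a potassium channel subunit, were chosen after their values were seen: Grp was at 9.81 and 9.48 in CTPN and 8.39 and 8.07 in CSMN (adjusted p = 0.57), and Kcnab1 at 11.14 and 11.11 in CTPN and 9.81 and 8.68 in CSMN (adjusted p = 0.13). Of the 35 genes called, 24 had other probe sets, 50 in all, of which 42 had the same sign as the brightest and 20 were at least 0.5 times as large.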
